A study of Mus musculus with 6 samples.

Results

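The genes described are 9 genes for potassium, bicarbonate, chloride and water transport in astrocytes, listed by what they encode and with no threshold on their values: Aqp4, Kcnj10, Kcnj16, Kcnk1, Kcnk2, Slc4a4, Slc12a2, Atp1b2 and Clcn2. They are 9 of the 22086 genes with counts, and 9 of 9 passed the filter on low counts. Their polysomal mRNAs were measured by TRAP (translating ribosome affinity purification), which pulls down ribosomes through an eGFP tag on their protein L10a, in the hippocampus of 6 weeks-old mice. The Cx43FL libraries (n = 3) came from littermates with the strain label tg:Aldh1L1-RPL10aGFP/ Cx43 fl/fl. The Cx43KO libraries (n = 3) came from mice that carried Gfap Cre in addition. Both genotypes thus shared the floxed Cx43 alleles and the ribosome tag, which was kept heterozygous and is driven by the Aldh1l1 promoter, whereas Cre is driven by the human GFAP promoter. The tag is therefore set by one promoter and the deletion by another, and the sources used here do not give how many animals entered a library. The comparison asks whether deletion of the gap junction protein Cx43 in astrocytes changed the ribosome-bound mRNAs of these transport genes.

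Astrocytes take up the potassium that neurons release when they fire and pass it to places where it is lower, among them the blood vessels that their endfeet cover. Inward rectifier and tandem pore potassium channels give astrocytes their high resting potassium conductance, the sodium pump and sodium-coupled cotransporters carry ions against their gradients, and the water channel aquaporin-4 lies in the endfeet beside the potassium channel Kir4.1. Connexins join astrocytes into a network through which potassium can spread.

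Total counts on transcripts were 33423491 to 34921942 in the Cx43FL libraries and 36869534, 55289727 and 77030398 in Cx43KO replicates 1 to 3. Levels below are CPM, counts per M of the counts on tested genes after scaling between libraries, and 3 counts correspond to 0.0864 to 0.203 CPM before that scaling, which covers counting error only. The summed CPM of 10 astrocyte markers was 27330 to 30843 in Cx43FL against 13263, 26066 and 37001 in Cx43KO replicates 1 to 3, none of these markers being at 0. Cx43KO replicate 1 stood apart, with the lowest astrocyte sum and the highest sums for 10 neuron markers (5250 CPM, against 1736 to 2376 in Cx43FL) and 6 oligodendrocyte markers (2511 CPM, against 559 to 922 in Cx43FL). Cx43FL replicate 2 stood apart by its low level of choroid plexus markers, of which 8 summed to 460 CPM there, to 9947 and 15360 in Cx43FL replicates 1 and 3, and to 32948, 26330 and 22236 in Cx43KO replicates 1 to 3. The sum for 8 microglia markers was also higher in every Cx43KO library, at 76.6 to 124 CPM against 27.6 to 49.5. Gja1, which encodes Cx43, had 1396, 1382 and 1264 counts in Cx43FL against 1405, 2449 and 3079 in Cx43KO, and its log2 fold change was 0.078 (standard error, SE, of 0.28 and edgeR adjusted p of 0.949). Gja1 thus showed no fall in Cx43KO. The counts do not show which part of Gja1 the reads cover, so they cannot tell how far the deletion reached in the tagged cells. The libraries are called Cx43KO by their labels.

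**Figure D1:**
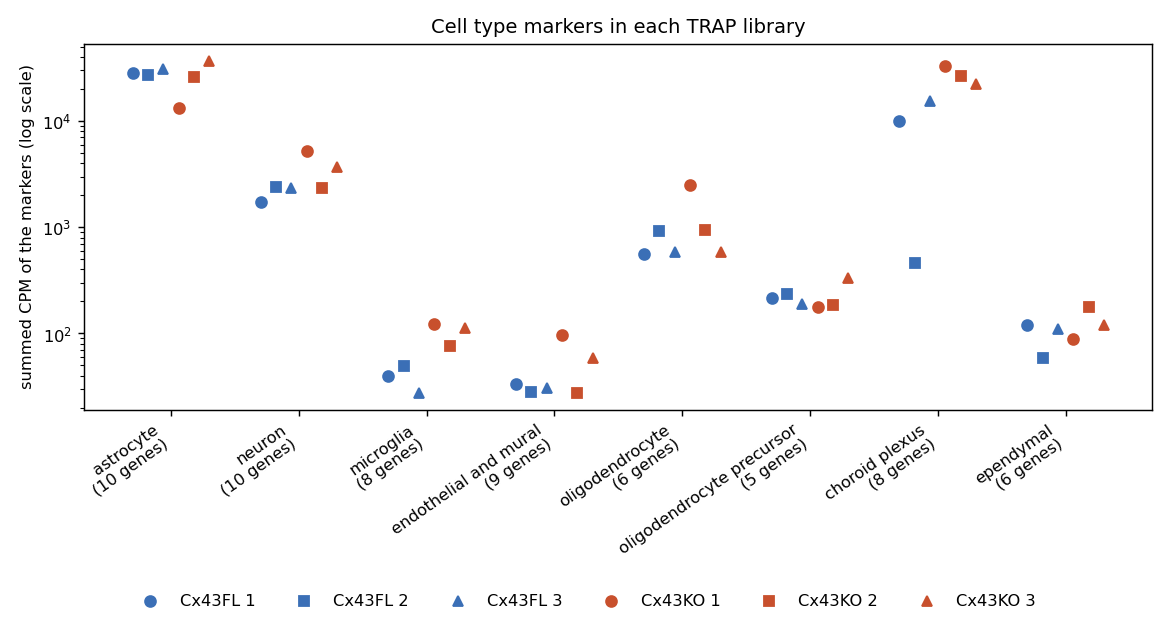
Summed CPM (vertical axis, log scale) of marker genes of 8 cell types in each of the 6 libraries, blue for Cx43FL and red for Cx43KO, with symbols for replicates 1 to 3. The 3 Cx43KO libraries lie above the 3 Cx43FL libraries for choroid plexus and microglia markers, and Cx43FL replicate 2 lies lowest of all for choroid plexus at 460 CPM.

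Kcnj10 and Kcnj16 encode Kir4.1 and Kir5.1, inward rectifier channel subunits that assemble with each other, and their promoters are shown because the levels of the pair parted in some of the libraries. The 250 bases before each start come from RefSeq (GRCm38.p6), whose promoter table was searched for 6 of the 9 members. Both lie on the plus strand, Kcnj10 at chr1:172340960-172341209 and Kcnj16 at chr11:110997237-110997486, and both end at the base before the start of the counted transcript. They are printed 5′ to 3′, and capitals mark CCGCCC, which is GGGCGG, the letters of the GC box, on the other strand:
Kcnj10: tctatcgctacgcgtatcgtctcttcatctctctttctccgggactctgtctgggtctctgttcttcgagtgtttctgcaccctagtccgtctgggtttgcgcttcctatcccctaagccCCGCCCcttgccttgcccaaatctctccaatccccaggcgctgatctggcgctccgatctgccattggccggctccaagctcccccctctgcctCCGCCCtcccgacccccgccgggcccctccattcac
Kcnj16: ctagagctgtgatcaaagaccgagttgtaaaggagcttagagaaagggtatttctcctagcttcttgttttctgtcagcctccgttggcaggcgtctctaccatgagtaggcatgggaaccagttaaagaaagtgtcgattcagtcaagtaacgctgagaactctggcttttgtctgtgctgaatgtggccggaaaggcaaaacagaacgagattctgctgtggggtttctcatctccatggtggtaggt
The Kcnj10 promoter holds the GC box letters at 130 to 125 and at 36 to 31 bases before the start, and 62.0% of its bases are G or C. The 250 bases shown for Kcnj16 have 47.6% G or C, against a median of 52.4% over all 32851 promoters in the table. They stand before only one of its annotated starts. Kcnj16 transcripts with other starts held nearly the same counts, so the promoter in use in these libraries may be another. In all, 4 sets of letters were searched on both strands, and each is given with the share of all promoters of this length that hold it: the GC box GGGCGG (32.7%), the TATA box TATAAA (12.4%), the SOX motif ACAAAG (16.5%) and the STAT motif TTCNNNGAA (7.02%). None of the 4 occurred in these 250 bases of Kcnj16, and only GGGCGG occurred in those of Kcnj10. GGGCGG was also found in the promoters of Clcn2 and Slc4a4 among the 6 members searched. For these genes the RefSeq start lay 519 and 442 bases from that of the counted transcript. The bases searched for Slc4a4 lie within the span of its counted transcript, not before it.

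Between the genotypes, Slc12a2 was 1.87-fold higher in Cx43KO, and Kcnj10, Slc4a4, Atp1b2 and Clcn2 had fitted levels from 1.47-fold to 1.56-fold of those in Cx43FL. Kcnk1, Kcnk2 and Aqp4 were within 1.12-fold, and Kcnj16 was lower in some Cx43KO libraries but higher in another. None of these differences passed the test, 0 of the 9 genes being called by the quasi-likelihood method of edgeR (Benjamini-Hochberg adjusted p below 0.05 over all tested genes, with over 50 normalized counts on average in the higher group), a threshold that 0.00738% of the 13545 tested genes passed in the higher and 0.0% in the lower direction. DESeq2 with its prior also called 0 of the 9, against 0.827% of genes higher and 0.124% lower. At an unadjusted p below 0.05, 1 of the 9 was higher and 0 lower, against 5.66% and 2.67% of all tested genes. The log2 fold change was above 0 for 8 genes and below 0 for Kcnj16 alone, with a median of 0.55 against 0.071 for all tested genes. The smallest p that an exact permutation test of 3 libraries against 3 can give is 0.1, which Slc12a2 had (2-sided), and the others had exact p-values from 0.2 to 1.0.

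Aqp4, the water channel of astrocyte endfeet (chr18:15389496-15410982 of GRCm38, minus strand, counted on the 5 exons of ENSMUST00000079081), had 425, 442 and 539 CPM in Cx43FL against 313, 382 and 877 CPM in Cx43KO, here and below in the order of replicates 1 to 3. Cx43KO replicates 1 and 2 lay below all Cx43FL libraries and replicate 3 above all of them. Means were 469 ± 61.4 against 524 ± 308 CPM (SD, n = 3 libraries per genotype). The log2 fold change of 0.16 was smaller than its SE of 0.38 (adjusted p = 0.915 from edgeR), and without Cx43KO replicate 3 it was -0.43.

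**Figure D2:**
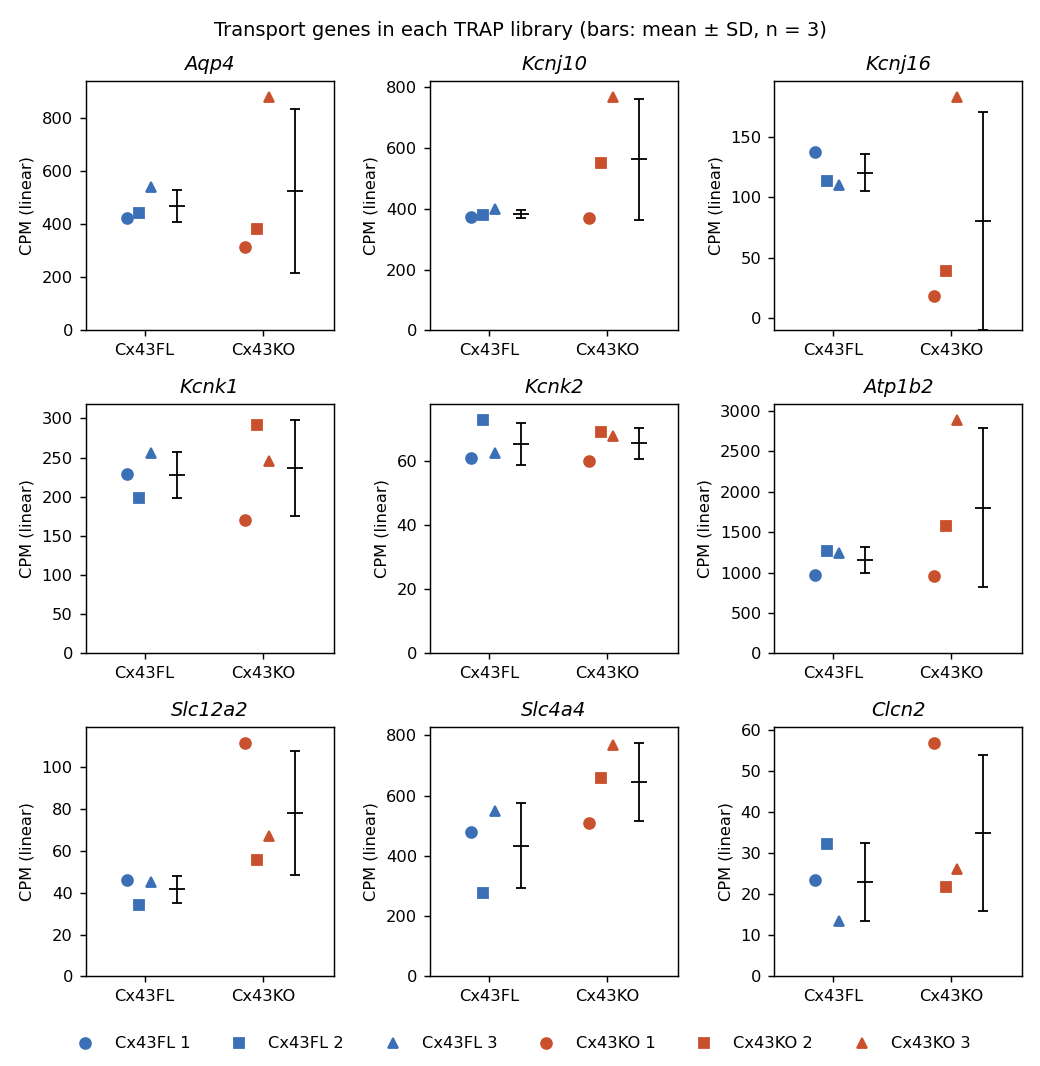
CPM (vertical axes, linear, each starting at or below 0) of the 9 transport genes in the 3 Cx43FL (blue) and 3 Cx43KO (red) libraries, with symbols for replicates and black bars for the mean ± SD. Slc12a2 is the only one of the 9 whose red points all lie above its blue points, and Kcnj16 spreads from 18.3 to 183 CPM in Cx43KO.

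The inward rectifiers did not run in parallel across the libraries. Kcnj10 (chr1:172341210-172374085, plus strand, 2 exons of ENSMUST00000056136) had 373, 379 and 400 CPM in Cx43FL against 371, 550 and 767 CPM in Cx43KO. The Cx43FL libraries lay closer together than for any other of the 9 genes, while Cx43KO replicate 1 lay just below them and replicates 2 and 3 above them. Its log2 fold change was 0.55 (SE 0.31, adjusted p = 0.621), and 0.26 without Cx43KO replicate 3.

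Kcnj16 (chr11:110968033-111027968, plus strand, 2 exons of ENSMUST00000106635) had 137, 113 and 110 CPM in Cx43FL against 18.3, 39.2 and 183 CPM in Cx43KO. Replicates 1 and 2 of Cx43KO lay far below every Cx43FL library and replicate 3 lay above them all. The underlying counts in those 3 libraries were 295, 975 and 5932. Kcnj16 had a log2 fold change of -0.58 (SE 0.65, adjusted p = 0.801). Without Cx43KO replicate 3 it was -2.06, and without Cx43KO replicate 1 it was -0.12, the adjusted p being 0.214 and 0.970.

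Kir5.1 forms channels with Kir4.1, and the level of Kcnj16 per transcript length was therefore set beside that of Kcnj10 in each library. This ratio was 0.543, 0.441 and 0.405 in Cx43FL against 0.0727, 0.105 and 0.352 in Cx43KO. The 3 Cx43KO libraries lay below the 3 Cx43FL libraries without overlap, with a difference of the mean log2 ratio of -1.73. Among all other tested genes, 23.1% had a ratio to Kcnj10 that was lower in every Cx43KO library. The ratio of Aqp4 to Kcnj10 was 1.22, 1.25 and 1.44 in Cx43FL against 0.903, 0.742 and 1.22 in Cx43KO, and the genotypes overlapped. Of 6 such ratios tabulated, 3 are described, chosen after the counts were seen and therefore given without a test. The other 3, of Kcnk1 to Kcnj10, Kcnk2 to Kcnk1 and Slc12a2 to Slc4a4, overlapped between the genotypes.

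**Figure D3:**
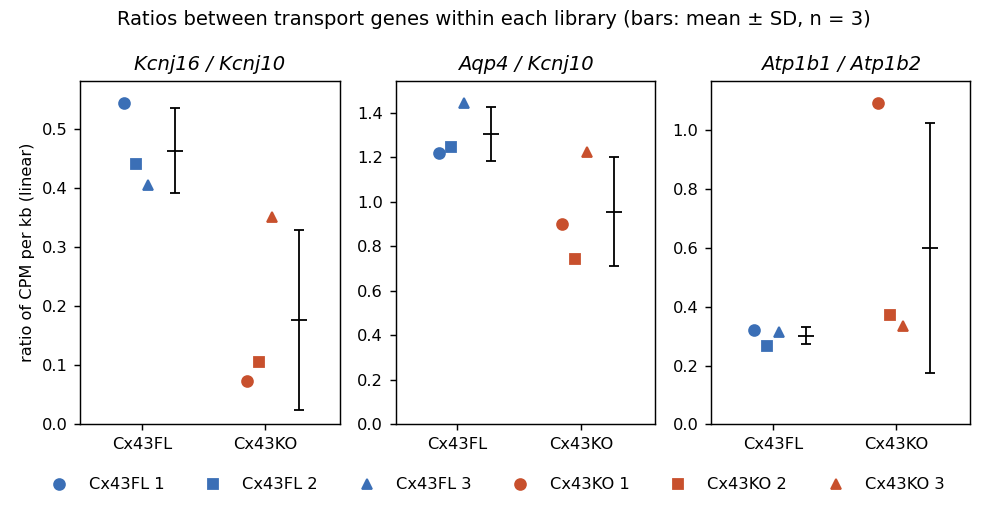
Ratios of CPM per kb of transcript (vertical axes, linear, starting at 0) between pairs of transport genes within each of the 3 Cx43FL (blue) and 3 Cx43KO (red) libraries, with black bars for the mean ± SD. The Cx43KO libraries lie below Cx43FL for Kcnj16 over Kcnj10 and above it for Atp1b1 over Atp1b2, and for Aqp4 over Kcnj10 they overlap.

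The tandem pore channels were close to level. Kcnk1, which encodes TWIK-1 (chr8:125995170-126030685, plus strand, 3 exons of ENSMUST00000046765), had 230, 198 and 256 CPM in Cx43FL against 171, 292 and 246 CPM in Cx43KO. Cx43KO replicate 1 lay below the Cx43FL range, replicate 2 above it and replicate 3 within it. Kcnk1 had a log2 fold change of 0.053 (SE 0.29, adjusted p = 0.972), and it was -0.050 without Cx43FL replicate 2 and -0.13 without Cx43KO replicate 2.

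Kcnk2, which encodes TREK-1 (chr1:189207930-189402273, minus strand, 7 exons of ENSMUST00000079451), had 60.7, 72.6 and 62.3 CPM in Cx43FL against 59.8, 68.8 and 67.6 CPM in Cx43KO. It varied least of the 9 genes among the Cx43KO libraries, by 1.15-fold from lowest to highest. Its log2 fold change was 0.0044 (SE 0.30, adjusted p = 0.998), and its sign changed under several other settings. The counted transcripts of Kcnk1 and Kcnk2 share 179 and 202 bases with antisense genes, and since the counting is not stated to use strand, reads from such stretches cannot be told apart.

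Atp1b2, the β2 subunit of the sodium pump, known in astrocytes as AMOG (chr11:69599736-69605942, minus strand, 6 exons of ENSMUST00000130394), had the highest level per transcript length of the 9 genes. It had 975, 1262 and 1237 CPM in Cx43FL against 953, 1576 and 2884 CPM in Cx43KO. Cx43KO replicate 1 lay just below the Cx43FL libraries and replicates 2 and 3 above them. Its log2 fold change was 0.64 (SE 0.38, adjusted p = 0.636), falling to 0.13 without Cx43KO replicate 3 and reaching 0.94 without Cx43KO replicate 1.

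Atp1b1, the β1 subunit, was set beside Atp1b2 in the same way. Per transcript length, the ratio of Atp1b1 to Atp1b2 was 0.321, 0.268 and 0.316 in Cx43FL against 1.09, 0.373 and 0.335 in Cx43KO. It was higher in every Cx43KO library, as was the ratio to Atp1b2 of 1.28% of all other tested genes, but by little in replicate 3 and most in replicate 1, the library with the highest neuron marker sum.

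Slc12a2, which encodes the sodium-potassium-chloride cotransporter NKCC1 (chr18:57878678-57946821, plus strand, 27 exons of ENSMUST00000115366), was the one member without overlap between the genotypes. It had 46.0, 34.1 and 44.9 CPM in Cx43FL against 112, 55.5 and 67.1 CPM in Cx43KO, means of 41.7 ± 6.58 and 78.0 ± 29.6 (SD, n = 3 libraries each). The 3 Cx43KO libraries exceeded the 3 Cx43FL libraries without overlap, as for 8.08% of all tested genes. The log2 fold change was 0.90 (SE 0.37), a 1.87-fold higher level, with an unadjusted p of 0.0317 and an adjusted p of 0.562 from edgeR, or 0.326 from DESeq2 with its prior. It was 0.55 without Cx43KO replicate 1 and 0.76 without Cx43FL replicate 2. NKCC1 is also abundant in the choroid plexus, and 7 of the 8 choroid plexus markers were likewise higher in every Cx43KO library. Within Cx43FL, replicate 2 was lowest for both Slc12a2 and the choroid plexus sum, and within Cx43KO replicate 1 was highest for both, as it was for the neuron and oligodendrocyte sums. The remaining libraries ranked the other way, Slc12a2 being higher in replicate 1 than 3 of Cx43FL and lower in replicate 2 than 3 of Cx43KO, in contrast to the choroid plexus sum. Ttr alone made up most of that sum, at 32150, 25644 and 21438 CPM in Cx43KO replicates 1 to 3. The geometric mean of the 8 markers was 156, 137 and 173 CPM there, so the ranking within Cx43KO depends on the measure. By it, replicate 3 was highest and replicate 2 was below replicate 3, as for Slc12a2. The part of RNA from these cell types in this difference was not tested, and in such bulk libraries fewer cells of a type and less RNA per cell cannot be told apart.

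Slc4a4, which encodes the sodium-bicarbonate cotransporter NBCe1 (chr5:88886818-89239653, plus strand, 26 exons of ENSMUST00000148750), had 478, 275 and 548 CPM in Cx43FL against 508, 658 and 767 CPM in Cx43KO. Cx43KO replicates 2 and 3 lay above all Cx43FL libraries, and replicate 1 lay within their range. The log2 fold change was 0.57 (SE 0.32, adjusted p = 0.626), and 0.32 without Cx43FL replicate 2. That library had the lowest level of Slc4a4, as it did of Slc12a2 and of the choroid plexus markers.

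Clcn2, the volume-sensitive chloride channel ClC-2 (chr16:20702964-20717746, minus strand, 24 exons of ENSMUST00000007207), was the least counted member. It had 23.4, 32.2 and 13.4 CPM in Cx43FL against 56.9, 21.7 and 26.2 CPM in Cx43KO, and only Cx43KO replicate 1 left the Cx43FL range. Clcn2 had a log2 fold change of 0.60 (SE 0.52, adjusted p = 0.738), and 0.054 without Cx43KO replicate 1. Its counted transcript shares 85 bases with Fam131a on the opposite strand.

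**Figure D4:**
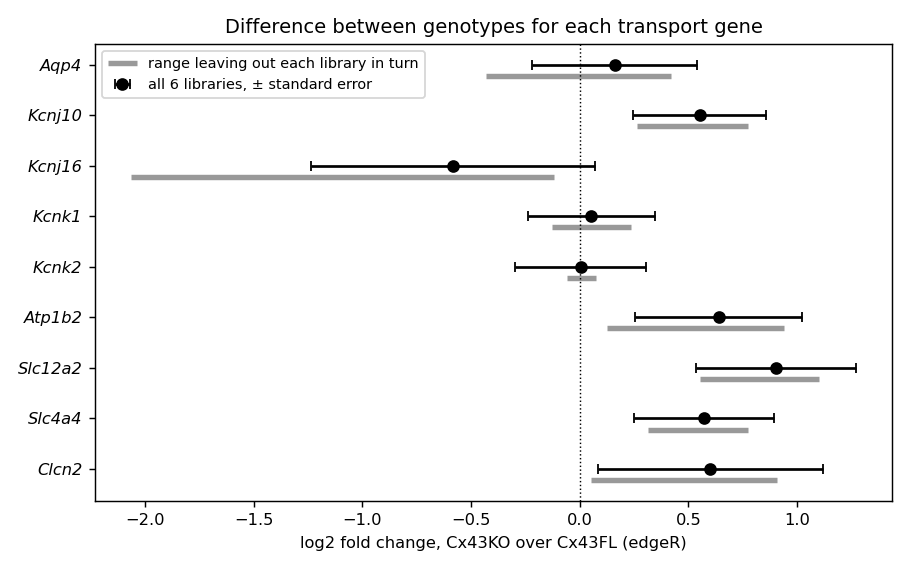
log2 fold change of Cx43KO over Cx43FL from edgeR (horizontal axis) for each of the 9 transport genes, with black points and whiskers for the estimate ± standard error from 6 libraries, and grey bars for the range when each library is left out in turn. The grey bar of Kcnj16 runs from -2.06 to -0.12, and those of Aqp4, Kcnk1 and Kcnk2 cross 0.

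The Cx43KO libraries spread more than the Cx43FL libraries for 7 of the 9 genes, the exceptions being Kcnk2 and Slc4a4. The median SD of log2 CPM over the 9 genes was 0.186 in Cx43FL against 0.525 in Cx43KO. Over the 9795 tested genes with a mean of at least 10 CPM, these medians were 0.342 and 0.557, and the SD was larger in Cx43KO for 71.2% of them. Within Cx43KO, replicate 1 was the lowest of the 3 libraries for 7 of the 9 genes and the highest for Slc12a2 and Clcn2. Among all tested genes, it was the lowest for 40.4% and the highest for 38.9%. Replicate 3, the deepest library and the one with the highest astrocyte marker sum, was the highest of the 3 for 5 of the 9 genes, against 35.4% of all tested genes.

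Atp1b2 led in both genotypes, at 309 ± 42.4 CPM per kb in Cx43FL against 481 ± 263 in Cx43KO (SD, n = 3 libraries each). In Cx43FL it was followed by Kcnk1 (102 ± 13.0), Aqp4 (92.7 ± 12.1), Kcnj10 (71.0 ± 2.58), Slc4a4 (54.7 ± 17.9), Kcnj16 (32.8 ± 4.08), Kcnk2 (19.8 ± 1.95), Clcn2 (7.36 ± 3.01) and Slc12a2 (6.39 ± 1.01). Neighbours in this order whose libraries overlapped were Kcnk1 and Aqp4, Kcnj10 and Slc4a4, Slc4a4 and Kcnj16, and Clcn2 and Slc12a2. In Cx43KO the libraries of neighbours were apart at 3 places in the order, between Atp1b2 and Kcnk1, between Slc4a4 and Kcnj16, and between Kcnk2 and Slc12a2. Kcnk1, Kcnj10 and Aqp4, at 106 ± 27.4, 104 ± 36.7 and 104 ± 60.9 CPM per kb, could not be ordered there. Kcnj16 ranged from 4.99 to 49.9 CPM per kb in Cx43KO, from below to above the whole range of Kcnk2.

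Since the astrocyte marker sum differed between libraries, levels were also divided by the geometric mean of the 10 astrocyte markers, which was 1104 to 1269 CPM in Cx43FL against 490, 1072 and 1373 CPM in Cx43KO replicates 1 to 3. The log2 fold change of these markers was itself below 0 for 7 and above 0 for 3, with a median of -0.43. On this scale, chosen after the data were seen, 4 of the 9 genes were higher in every Cx43KO library, namely Kcnj10, Slc4a4, Slc12a2 and Atp1b2, against 11.5% of all tested genes. Kcnj10 had 0.338, 0.305 and 0.315 of the marker mean in Cx43FL against 0.757, 0.513 and 0.559 in Cx43KO. Atp1b2 had 0.883, 1.02 and 0.975 in Cx43FL against 1.94, 1.47 and 2.10 in Cx43KO. Kcnj16 still overlapped, at 0.0866 to 0.125 in Cx43FL against 0.0366 to 0.133 in Cx43KO. In edgeR this scaling raised the median log2 fold change of all tested genes from 0.071 to 0.62, and relative to that median Kcnj10 (0.93), Slc4a4 (1.02), Slc12a2 (1.65), Atp1b2 (0.94) and Clcn2 (1.43) were higher while Aqp4 (0.49), Kcnk1 (0.49), Kcnk2 (0.53) and Kcnj16 (-0.54) were lower. None of the 9 was called, the lowest adjusted p being 0.478.

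Genes that belong to the same transport families were counted in 8 lists holding 86 genes, of which 59 could be tested. Of these 59, edgeR called 0 and DESeq2 with its prior called 2, Atp1b1 and Car12, both higher, against 0.827% of all genes higher and 0.124% lower by DESeq2. At an unadjusted p below 0.05, 8 were higher and 0 lower, against 5.66% and 2.67% of all tested genes. In 14 of them every Cx43KO library lay above, and in 2 below, the Cx43FL libraries, against 8.08% and 7.45% of all tested genes. The log2 fold change was above 0 for 46 and below 0 for 13, with a median of 0.50. Markers of other cell types also had median log2 fold changes above 0. These were 0.89 for neurons, 1.22 for oligodendrocytes, 0.19 for their precursors, 0.88 for microglia, 0.88 for endothelial and mural cells, 0.75 for ependymal cells and 1.80 for the choroid plexus. Only the microglia and choroid plexus sums were higher in every Cx43KO library, while the others overlapped between the genotypes. The oligodendrocyte sum was 2511, 940 and 580 CPM in Cx43KO. Of the 14 genes higher without overlap, 3 (Aqp1, Kcnj13 and Slc4a5) are themselves choroid plexus markers. The part of such RNA in these differences was not tested.

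**Figure D5:**
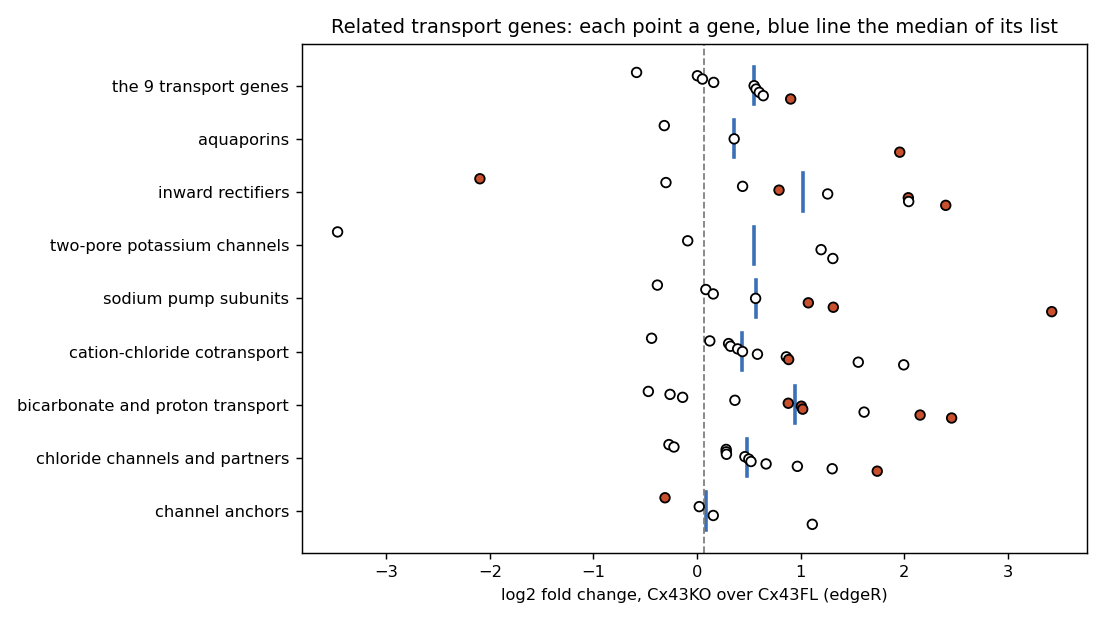
log2 fold change of Cx43KO over Cx43FL from edgeR (horizontal axis) for the 9 transport genes and the tested genes of 8 related lists (vertical axis), each point a gene, filled where the libraries of both genotypes do not overlap, with a blue line at the median of each list and a dashed line at the median of all tested genes (0.071). Bicarbonate and proton transport and the inward rectifiers hold the most filled points, 5 and 4, and the 1 filled point of the channel anchors, Dmd, lies below 0.

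Of 9 other aquaporins, 3 could be tested, and Aqp3, Aqp6, Aqp8 and Aqp12 had 0 counts in all 6 libraries and were not detectable at this depth. Aqp1, the water channel of the choroid plexus, had 6.98, 0.0663 and 8.47 CPM in Cx43FL against 11.8 to 27.6 CPM in Cx43KO. Aqp1 is itself one of the 8 choroid plexus markers, and Cx43FL replicate 2 held 1 count of it.

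Of 13 other inward rectifiers, 8 could be tested and 0 were called. Kcnj13, the Kir7.1 channel of the choroid plexus, had 34.6, 0.133 and 26.4 CPM in Cx43FL against 104, 45.6 and 102 CPM in Cx43KO, and was lowest in Cx43FL replicate 2. It too is one of the 8 choroid plexus markers. Kcnj4, a neuronal Kir2 channel, had a log2 fold change of 2.4 (SE 1.02) with every Cx43KO library higher, at 0.725 to 3.52 CPM against 3.86 to 17.6. Kcnj14 was lower in every Cx43KO library by little more than its error, at a log2 fold change of -2.10 (SE 1.29) and under 2.5 CPM in every library. Of 12 other tandem pore channels, 4 could be tested, with 0 called and 0 without overlap.

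Of 7 other sodium pump subunits tested, 3 were higher in every Cx43KO library, against 8.08% of all tested genes, and 2 of these, Fxyd2 and Fxyd5, had few counts. Atp1b1 had 215, 233 and 269 CPM in Cx43FL against 715, 404 and 665 CPM in Cx43KO (log2 fold change 1.32, SE 0.30, adjusted p = 0.490 by edgeR and 0.021 from DESeq2). Like Car12 below, it stands in the study's own list of higher genes, which was chosen on the same libraries, so that its direction is no independent evidence. Within Cx43KO, replicate 1 was highest both for Atp1b1 and for the neuron markers, and the part of neuronal RNA in this difference was not tested. Of the other subunits with a mean above 50 CPM, Atp1b3 (log2 fold change 0.09) and Fxyd1 (0.16) overlapped between genotypes, as did Fxyd6 (-0.38). Fxyd5 and Fxyd2 did not overlap but stayed under 11 CPM in every library, with log2 fold changes of 3.43 and 1.08.

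Around Slc12a2, the cation-chloride list had 11 tested genes with a median log2 fold change of 0.44 and 0 called. Its kinases Wnk1 and Wnk2, which act upstream of NKCC1, had log2 fold changes of 0.31 and 0.39 with overlapping libraries. Stk39, which encodes the kinase SPAK that phosphorylates NKCC1, had 119, 52.5 and 160 CPM in Cx43FL against 254, 141 and 208 CPM in Cx43KO, and Cx43FL replicate 2 was again the lowest. Oxsr1, the related kinase, was named after its values were seen, as was Slc12a5. Oxsr1 had 37.0, 23.9 and 23.4 CPM in Cx43FL against 52.5, 51.0 and 52.3 CPM in Cx43KO. It was the 1 gene of the 11 that was higher in every Cx43KO library, against 8.08% of all tested genes. Its log2 fold change was 0.89 (adjusted p = 0.575 from edgeR). Slc12a5 overlapped between the genotypes, with a log2 fold change of 1.56 (adjusted p = 0.540 from edgeR).

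Around Slc4a4, 10 bicarbonate and proton transport genes could be tested, with a median log2 fold change of 0.94, and 5 of them were higher in every Cx43KO library, against 8.08% of all tested genes. Car12, a membrane carbonic anhydrase, had 15.5, 2.65 and 18.4 CPM in Cx43FL against 77.4, 52.7 and 71.0 CPM in Cx43KO (log2 fold change 2.46, DESeq2 adjusted p = 0.0142). Cx43FL replicate 2 was the lowest of all libraries for Car12, as for the choroid plexus sum, and the part of choroid plexus RNA in this difference was not tested. Slc4a5, a bicarbonate cotransporter of the choroid plexus and one of its 8 markers, had 10.4, 0.265 and 30.4 CPM in Cx43FL against 49.0, 57.0 and 76.9 CPM in Cx43KO. Slc4a10 and Slc4a3 had log2 fold changes of 1.02 and 1.01 and did not overlap. Car2, the cytosolic carbonic anhydrase and the most abundant of the list, had a log2 fold change of -0.47, at 1211 to 2027 CPM in Cx43FL against 672 to 1745 CPM in Cx43KO, with overlap.

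Around Clcn2, 12 chloride channel genes and partners could be tested, with a median log2 fold change of 0.48 and 0 called. Hepacam and Mlc1, whose products hold ClC-2 at astrocyte junctions, had log2 fold changes of -0.27 and -0.22 and overlapped, with Cx43KO replicate 1 lowest for both at 334 and 131 CPM. Lrrc8a, a subunit of the volume-regulated anion channel, was 90.1 to 162 CPM in Cx43FL against 130 to 287 CPM in Cx43KO. Clcn3 and Clcn4 overlapped at log2 fold changes of 0.50 and 0.28, and Clcn1, without overlap, was under 15 CPM in every library (log2 fold change 1.74).

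Of the genes for anchors of Aqp4 and Kcnj10 at the endfoot, from the dystrophin complex and its ligand agrin, 4 were tested. Dmd, dystrophin itself, had 323, 318 and 323 CPM in Cx43FL against 267, 233 and 279 CPM in Cx43KO. It was lower in every Cx43KO library, with a log2 fold change of -0.31 (SE 0.25) and an adjusted p of 0.722 from edgeR. Of the 10 astrocyte markers, 2 were lower in every Cx43KO library too, against 7.45% of all tested genes. These were Gjb6, which encodes Cx30, and Glul, at log2 fold changes of -0.83 and -0.72. The log2 fold change was below 0 for 7 of the 10 and above 0 for 3, Slc1a2 (0.40), Slc1a3 (0.34) and Gfap (0.24). The median of the 10 astrocyte markers was -0.43. Dtna had 784 to 814 CPM in Cx43FL against 612 to 914 in Cx43KO. Dag1, dystroglycan, overlapped at a log2 fold change of 1.11 and was highest in Cx43KO replicate 3 at 135 CPM.

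Across the 6 libraries, the genes whose log2 CPM ran most closely with Aqp4 among 9786 genes searched were Tmem198b (Pearson r = 0.994), Mmp19 (r = 0.985) and Rnf40 (r = 0.984). Those closest to Kcnj10 were Prelp (r = 0.993), Apod (r = 0.989) and Tm4sf1 (r = 0.979). These values describe 6 points that share libraries and depth. Apod had 30.1 to 36.8 CPM in Cx43FL against 21.2, 86.3 and 232 CPM in Cx43KO, the same order of libraries as Kcnj10 within Cx43KO. Since Apod was picked by its correlation with Kcnj10, this shared order is no separate evidence.

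The counts are given per transcript, and a read appears to be counted on every transcript that it overlaps. Of the counts on ENSMUST00000106635, 98.8% to 99.9% were also found on ENSMUST00000106636, which starts at another promoter, so that the start in use cannot be told from them. The coding transcript ENSMUST00000047889 held 99.77% to 99.98% of the counts of ENSMUST00000130394, which is annotated as a processed transcript. For Slc4a4, the counts on ENSMUST00000156238 came to 34.0%, 35.9% and 35.4% of those on ENSMUST00000148750 in Cx43FL and to 27.4%, 41.3% and 24.1% in Cx43KO. For Clcn2, those on ENSMUST00000120099 came to 31.5%, 6.17% and 30.6% of those on ENSMUST00000007207 in Cx43FL and to 46.6%, 44.5% and 30.2% in Cx43KO. For both genes these shares overlapped between the genotypes.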

How the data were processed

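Polysomal RNA of 6 libraries was amplified with the Ovation kit, which the labels name, and sequenced. The authors used Eoulsan to filter reads, STAR to align them to mm10 and HTSeq-count 0.5.3 to count them, after dropping those with several alignments. The deposited values are raw counts per Ensembl transcript, although the tests had been planned for counts per gene. Of 75466 transcripts, 73157 were matched to GENCODE M21 (GRCm38), and the 2309 others held 1.60% to 1.78% of the counts. For each of 22086 genes the most counted transcript over all libraries was kept, and 1 symbol, Clcn4, was matched by hand.

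The genotype test was that of edgeR 4.0.16 under R 4.3.3 (TMM, filterByExpr, quasi-likelihood F test, genotype alone in the model, Benjamini-Hochberg adjustment over 13545 tested genes). The standard error is the size of the log2 fold change over the square root of F. Alternatives were DESeq2 1.42.0, other scalings, filters and features, a replicate block and leaving out each library. Both tools were tested on simulated data. Exact 2-sided permutation tests were run on log2 of CPM plus 0.5 with scipy 1.17.1.

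The members and lists were chosen with earlier results of these data known. Of the related lists, the genes named are those with a mean of at least 50 CPM, those called by any tool, and those without overlap between genotypes and a log2 fold change of at least 1 in size. Some genes of these lists are not reported here and are left out of the counts. For Aqp4 and Kcnj10, the 3 genes most like each were named among genes of at least 10 CPM. The sources used here do not say which animals gave each library, so p-values measure the spread between libraries, which may be technical. Chi-square per degree of freedom was at least 33.8 for any pair of libraries, so none was counted as a repeat deposit. Libraries were pooled in groups of 3 on 2 sequencing lanes, but the sources used here do not say which library ran on which lane. The numbers in the names of the deposited tables fall in separate ranges for Cx43FL and Cx43KO, and what they stand for is not given, so any batch that follows them cannot be told apart from genotype.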

Additional observations from a re-analysis of the deposited data

How the results depend on the processing

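Over 17 alternatives for each of the 9 genes, 141 of 153 values kept their direction and their side of the threshold, 11 changed sign, and the lowest adjusted p was 0.214. Of the 17, 1 only changed the threshold on the main fit to an unadjusted p below 0.05, so its directions could not differ. By edgeR, 0 of the 9 genes were called, and 1 (Slc12a2, log2 fold change 0.90) with an unadjusted p below 0.05. The genes called higher in Cx43KO numbered 1 with all 6 libraries, 0 with at least 10 counts in every library, with scaling to the astrocyte markers (chosen after seeing the data) and with the transcript counts of a gene added up, 113 and 147 by DESeq2 with and without its prior, 763 at an unadjusted p, and 0 to 11 when each library was left out, the 11 being without Cx43KO replicate 1. Those called lower numbered 0 by edgeR, 17 and 27 by DESeq2 with and without its prior, and 358 at an unadjusted p. With the replicate number as a block, 2 genes were called higher, 0 of them among the 9, and the log2 fold change of Kcnj16 was -1.27 and that of Slc12a2 0.85. Deviations of libraries with the same number correlated at -0.055 to 0.011. Differences particular to single libraries can hide a shared origin, so these values do not settle whether the numbers pair the libraries. The sign changed for Aqp4 without Cx43KO replicate 3 (-0.43), for Kcnk1 without Cx43FL replicate 2 (-0.050) and without Cx43KO replicate 2 (-0.13), and for Kcnk2 with DESeq2's size factors (-0.0016), upper-quartile factors (-0.049), at least 10 counts in every library (-0.0071) and every transcript tested (-0.0095), as well as without Cx43FL replicates 1 (-0.058) and 3 (-0.029) and without Cx43KO replicates 2 (-0.034) and 3 (-0.020). The cause was not tested. With each library left out in turn, log2 fold changes ranged from -0.43 to 0.42 for Aqp4, -0.13 to 0.24 for Kcnk1, -0.058 to 0.076 for Kcnk2, 0.26 to 0.77 for Kcnj10, -2.06 to -0.12 for Kcnj16, 0.32 to 0.77 for Slc4a4, 0.55 to 1.10 for Slc12a2, 0.13 to 0.94 for Atp1b2 and 0.054 to 0.91 for Clcn2.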

Other observations

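Of the related genes that could not be tested, Kcnk6, a tandem pore potassium channel (TWIK-2), was named after its counts were seen. Its counts were 0, 1 and 1 for Cx43FL against 66, 25 and 7 for Cx43KO, in the order of the replicates. Other tandem pore channels with too few counts to be tested went otherwise. Kcnk7 had 11, 32 and 0 counts for Cx43FL against 0, 0 and 4 for Cx43KO, and Kcnk12 had 28, 0 and 0 against 0, 7 and 0. No difference can be read from such counts.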
